A study of Sus scrofa with 6 samples.

Results

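The 6 longissimus dorsi libraries of QingYu pigs were divided by 1 property of each library, the median TPM over all 12671 listed loci. TPM is each locus's share of the reads after division by its length, set to the same sum in every library, so it compares genes within a library and holds no number of reads. Of the 6 libraries, 3 had a median of at least 4 TPM, which were IP replicates 1 and 2 and PP replicate 2, and 3 had a median under 4 TPM, which were IP replicate 3 and PP replicates 1 and 3. The first 3 are called high-median and the last 3 low-median libraries. Each class held libraries of both growth phases, so the division ran across the comparison for which the animals were sampled. The phases were not balanced, with 2 IP and 1 PP libraries in the high-median class and 1 IP and 2 PP libraries in the low-median class. A difference between the classes therefore holds part of any difference between the phases. The medians were 4.69, 6.12 and 4.52 TPM in IP replicates 1 and 2 and PP replicate 2, against 3.03, 2.98 and 3.18 TPM in IP replicate 3 and PP replicates 1 and 3. In every list of 6 values that follows, the libraries stand in this order, first the 3 high-median and then the 3 low-median ones. The library just inside the threshold had 4.52 TPM and the library just outside had 3.18 TPM.

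The samples came from the long muscle of the back of female pigs of 1 breed, with 3 animals at the inflection point of the growth curve (IP, day 178) and 3 at the plateau phase (PP, day 395), and no animal carried an engineered allele or was given an agent. The sample labels give 178 days for all 6 libraries, whereas the growth protocol gives 395 days for the PP. Polyadenylated RNA was captured on oligo(dT), and the labels state a minimum of RNA integrity that each sample passed, with no value per library. Each sample was a piece of whole muscle, so fewer cells of a type and less RNA per cell cannot be told apart. The most abundant transcripts included those of fast muscle fibres, with TNNC2, the fast fibre troponin C, at 26080, 16799, 28737, 20029, 16836 and 21519 TPM, and ACTA1, skeletal actin, at 11431, 7252, 6270, 4901, 3658 and 4474 TPM. The tissue label was thus borne out in each library.

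Skeletal muscle devotes much of its messenger RNA to a small number of very abundant short transcripts, which encode contractile proteins, ribosomal proteins and subunits of the respiratory chain. Because TPM sum to a fixed total, a larger share for these transcripts lowers the values of all others in that library. Long transcripts of moderate or low abundance encode, among others, the giant proteins of the sarcomere, chromatin regulators, splicing factors and large ubiquitin ligases. A median-ratio scaling, which divides each library by its typical ratio to the mean library, removes a shift that most loci share and leaves the differences between genes. Values are given on both scales below, as differences in mean log2(TPM + 1), high-median minus low-median, with the SE from the spread among the 3 libraries of each class. The log2(TPM + 1) scale understates differences of genes with low values.

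The classes were chosen on these same values, so no test was made between them and no p-value is given for them. The differences are descriptions of the 6 libraries. A locus was counted when its 3 high-median and 3 low-median values did not overlap and the means differed by at least 1 on the log2 scale, which is 2-fold.

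In the high-median libraries, expression was spread over more loci. Loci at 1 TPM or more numbered 11023, 11893 and 10898 in the high-median and 9775, 9893 and 10089 in the low-median libraries. The 100 most abundant loci of each library took 70.1%, 64.8% and 71.9% of all TPM against 76.0%, 77.3% and 76.6%. All other loci thus shared 31.1% ± 3.69 of the TPM in the high-median and 23.4% ± 0.665 in the low-median libraries (SD, n = 3 libraries each). The 3 most abundant loci, all assembled from reads and without a gene name, took 34.2%, 32.1% and 38.6% against 44.7%, 47.9% and 46.8%. A single assembled locus, MSTRG.716, made up most of that, with 25.2%, 21.8% and 29.0% against 31.9%, 35.03% and 35.8%. The classes did not overlap in any of these measures. The part of the abundant loci in the other differences was not tested. With the 3 most abundant loci left out and each library rescaled, 1130 loci were counted as higher in the high-median libraries, and 1101 of them were among the 1586 counted with these loci in.

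**Figure D1:**
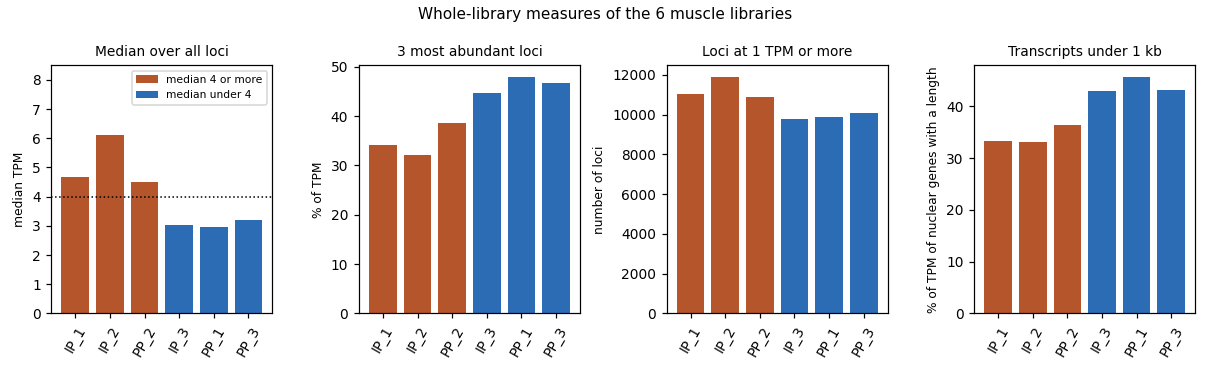
Bars give 4 measures of each library, from left to right the median TPM over all loci with the threshold of 4 as a dotted line, the percentage of TPM in the 3 most abundant loci, the number of loci at 1 TPM or more, and the percentage of the TPM of nuclear genes with a known length that lay in transcripts under 1 kb. High-median libraries are brown and low-median libraries blue, and the classes do not overlap in any panel, with 32.1% to 38.6% against 44.7% to 47.9% for the 3 most abundant loci.

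Of the 10896 loci with at least 1 TPM in at least 3 libraries, 87.9% had a higher mean in the high-median libraries as deposited, with a median difference of 0.47. On this scale 1586 loci (14.6%) were counted as higher and 3 (0.0275%) as lower in the high-median libraries. Without the condition on size, the classes did not overlap for 5950 loci (54.6%) that were higher and 125 (1.15%) that were lower. After median-ratio scaling, with size factors of 1.17, 1.51 and 1.12 against 0.810, 0.784 and 0.826, the median difference was -0.02. The scaling therefore moved the difference of a typical locus by about the whole of the deposited shift. It left 349 loci (3.2%) counted as higher and 184 (1.69%) as lower, while non-overlap alone held for 2199 loci (20.2%) and 2129 loci (19.5%). All 349 were also counted as higher on deposited TPM. This is no result, since every high-median size factor was above 1 and every low-median one below 1. Of the 184, 3 were also counted as lower as deposited. The 3 were IER2, PMP2, a myelin protein that binds lipids, and the assembled locus MSTRG.3153. The deposited count of lower loci was 50 without IP replicate 2, 45 without IP replicate 3, 10 without PP replicate 2 and 9 without IP replicate 1. Leaving out any library makes non-overlap easier to meet.

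Between the phases the division looked alike. Within the IP, replicates 1 and 2 were set against replicate 3, and within the PP, replicate 2 against replicates 1 and 3, so that these differences share no library. Over the 10896 loci, the scaled differences of the IP and the PP had a Pearson correlation of 0.63 and a Spearman correlation of 0.66 as a description, since genes of 1 library share its composition. The sign was the same for 75.4% of loci. A scaled difference of at least 1 in both phases was found for 230 loci in the high-median direction and 80 in the low-median direction. Because the same medians chose the libraries in each phase, this likeness is no independent result.

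**Figure D2:**
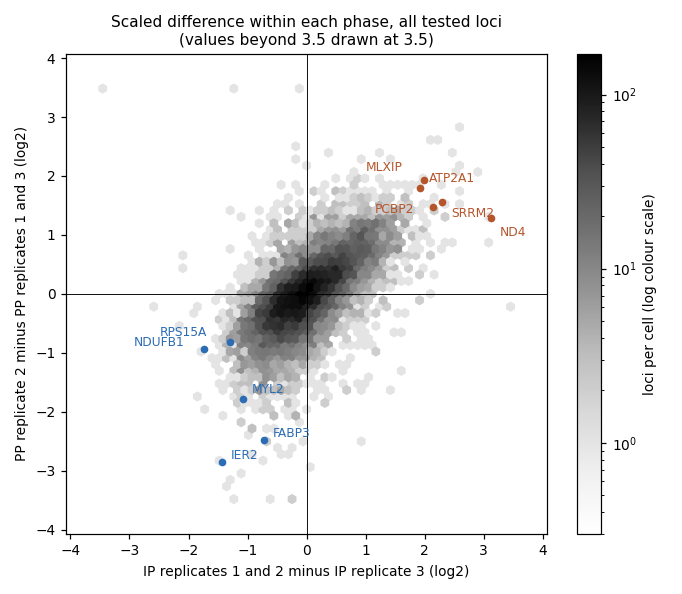
Each grey cell counts tested loci by their scaled log2 difference within the IP (horizontal, replicates 1 and 2 minus replicate 3) and within the PP (vertical, replicate 2 minus replicates 1 and 3), with darker cells holding more loci on a log colour scale. Named genes are marked in brown where higher and in blue where lower in high-median libraries, and ND4 lies at 3.12 in the IP and 1.28 in the PP, while FABP3 lies at -0.72 and -2.48.

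The libraries of 1 class were not alike in all respects. Among the 349 loci higher in the high-median libraries after scaling, PP replicate 3 held the highest of the 3 low-median values for 320 (91.7%), and PP replicate 1 for 4. Among the 184 loci that were lower, IP replicate 3 was the low-median library nearest to the other class for 95 (51.6%), PP replicate 3 for 89 (48.4%) and PP replicate 1 for 0. PP replicate 1 was thus rarely the nearest in either direction. Without PP replicate 3, 602 loci were counted as higher and 264 as lower. Without PP replicate 1, the counts were 228 and 112, and without IP replicate 3, 342 and 295. Non-overlap is easier to meet with any library left out, so these counts are not directly comparable with those of all 6 libraries.

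Transcript length separated the classes across the transcriptome. RefSeq transcripts of Sscrofa11.1 were found for 8027 of the 8637 tested loci with a symbol (92.9%), and 8014 of them were nuclear. Over these 8014 loci, the scaled difference had a Spearman correlation of 0.45 with transcript length, 0.50 within the IP and 0.34 within the PP. Coding length gave 0.47, the number of exons 0.35, the length of the 3′ untranslated region 0.26 and GC content 0.10. The points share the 6 libraries, so these are descriptions and no p is given. For transcripts under 500 bases the median scaled difference was -0.76 over 58 loci, and 42 of them were lower in the high-median libraries without overlap. Transcripts of 500 to 1000 bases had a median of -0.51 over 463 loci. The median passed 0 in the class of 3000 to 4000 bases, at 0.01 over 1230 loci. Transcripts of 8000 bases or more had a median of 0.28 over 670 loci, of which 282 (42.1%) were higher without overlap and 30 (4.48%) lower.

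Each library followed its class in this respect. For each doubling of transcript length, scaled log2 values moved by 0.10, 0.11 and 0.08 in IP replicates 1 and 2 and PP replicate 2, and by -0.13, -0.11 and -0.06 in IP replicate 3 and PP replicates 1 and 3. Transcripts under 1 kb took 33.3%, 33.0% and 36.3% of the TPM of nuclear genes with a length in the high-median libraries and 43.0%, 45.6% and 43.2% in the low-median ones. Transcripts of 4 kb or more took 11.4%, 13.3% and 10.1% against 7.83%, 7.63% and 8.07%. A length was known for 137 of the 349 loci counted as higher after scaling and for 110 of the 184 counted as lower. Among these the median transcript was 4890 and 997 bases long, against 3118 bases over the 8027 tested loci with a length. The part of transcript length in the differences of single genes was not tested. Their values after subtraction of the median of their length class, an alternative chosen after seeing the data, are given beside them where they bear on the result. After that subtraction 125 loci were counted as higher and 35 as lower, against 133 and 110 of the same 8014 loci before.

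**Figure D3:**
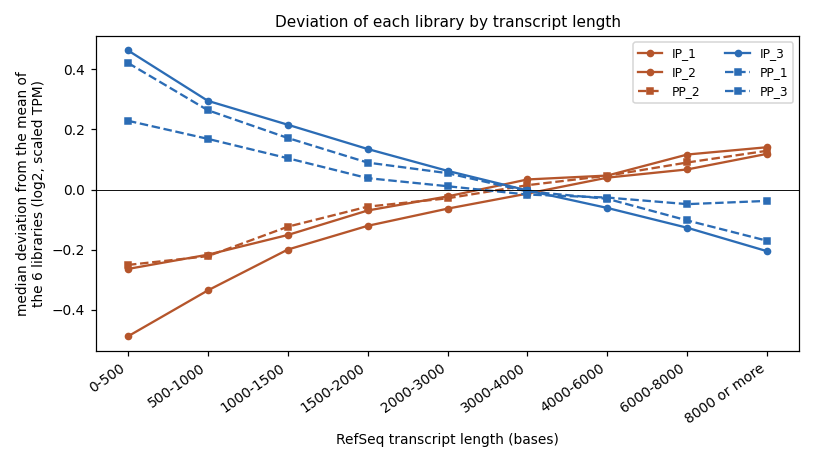
Lines give, for each library, the median deviation of scaled log2 values from the mean of the 6 libraries over 9 classes of RefSeq transcript length, with high-median libraries in brown, low-median in blue, IP as circles with solid lines and PP as squares with dashed lines. The lines of the 2 classes of libraries cross near 3000 to 4000 bases, and for transcripts under 500 bases the low-median libraries lie between 0.23 and 0.46 and the high-median ones between -0.49 and -0.25.

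Scaled differences were ranked among loci with a symbol, a mean of at least 5 TPM and classes that did not overlap. The highest of these toward the high-median libraries were a mitochondrial gene, the calcium pump of fast fibres and several regulators of RNA. ATP2A1 encodes the pump that returns calcium to the sarcoplasmic reticulum of fast fibres. The gene occupies positions 18545064 to 18568306 of chromosome 3 on Sscrofa11.1. Its level was 2806, 2331 and 1300.3 TPM in the high-median and 411, 168 and 426 TPM in the low-median libraries. Each high-median library thus stood at least 3-fold above each low-median one, and the difference was 2.72 ± 0.55 as deposited and 2.08 ± 0.52 after scaling. It was 1.92 within the IP and 1.80 within the PP, and 2.05 after subtraction of the median of its length class. SRRM2, a large scaffold protein of the nuclear speckles where splicing factors gather, had 22.9, 25.8 and 18.4 TPM against 2.36, 2.40 and 6.24 TPM, a scaled difference of 1.86 ± 0.37. MLXIP, a transcription factor that responds to glucose, had 27.3, 16.9 and 24.1 TPM against 2.70, 2.59 and 5.80 TPM, and its scaled difference was 1.82 ± 0.44. For MAPRE2, which binds the ends of microtubules, the values were 50.2, 26.4 and 30.4 TPM against 6.50, 3.41 and 8.40 TPM, with a scaled difference of 1.80 ± 0.48. SLC6A8, the creatine transporter, had 33.9, 28.4 and 22.3 TPM against 4.58, 4.197 and 7.62 TPM. The classes did not overlap for any of these genes, and their low-median values were highest in PP replicate 3 throughout.

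PCBP2, which binds stretches of C in RNA, and EIF1, which helps the ribosome to select the start codon, were both abundant and short among the genes of this direction. PCBP2 had 221, 197 and 175 TPM against 28.1, 27.9 and 71.7 TPM. EIF1 had 1236, 1146 and 980.4 TPM against 211, 157 and 396 TPM. Their transcripts were 2346 and 1305 bases long, and the scaled differences of 1.70 ± 0.45 and 1.60 ± 0.40 were 1.83 and 1.86 after subtraction of the median of their length class. Near-identical copies of both genes exist in mammalian genomes, so their values are uncertain where reads were shared among copies. The others among the 12 largest ranked differences were ND4, ND5, WIPF3, PRKACA, the catalytic subunit of protein kinase A, and DIAPH1, which nucleates actin filaments.

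**Figure D4:**
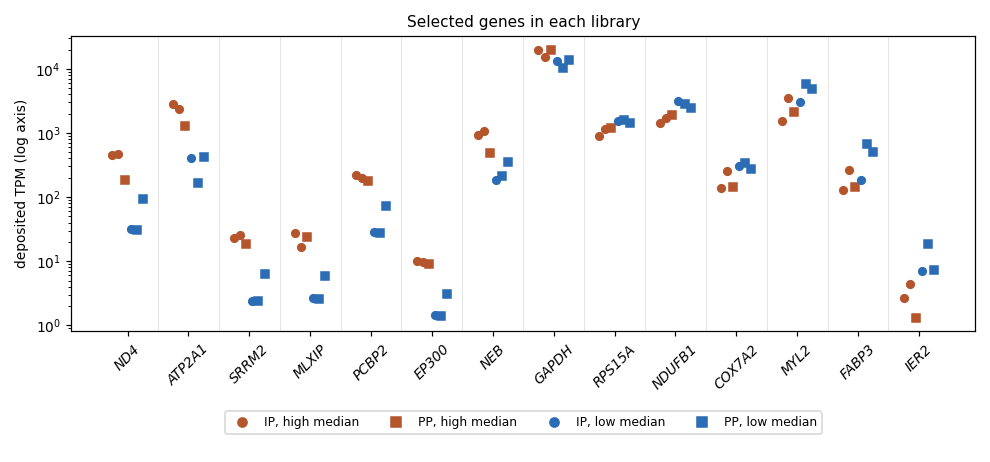
Points give the deposited TPM (log axis) of 14 genes in each of the 6 libraries, with high-median libraries in brown, low-median in blue, IP as circles and PP as squares. ATP2A1 had 1300.3 to 2806 TPM in the high-median and 168 to 426 TPM in the low-median libraries, whereas COX7A2 had 139 to 256 TPM against 276 to 345 TPM.

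The mitochondrial genome encodes 13 subunits of the respiratory chain, which are made from long precursor transcripts. All 13 were measured, and their summed share of TPM was 2.03%, 2.33% and 0.999% in the high-median against 0.834%, 0.730% and 0.898% in the low-median libraries. The median scaled difference of the 13 was 0.88, against -0.02 over all tested loci. Of the 13, 4 were counted as higher and 0 as lower, against 3.2% and 1.69% of all tested loci. ND4, a subunit of complex I, lies on the mitochondrial chromosome from 11359 to 12736 and had 450.4, 474 and 184 TPM against 31.6, 30.8 and 93.8 TPM. Its scaled difference was 2.25 ± 0.62, and PP replicates 2 and 3 were much closer to each other than the IP libraries of the 2 classes. ND5, another subunit of complex I, had 269, 359 and 96.4 TPM against 34.0, 23.3 and 59.7 TPM. COX1, the catalytic subunit of complex IV, in contrast had 6256, 7210 and 3519 TPM against 3654, 3378 and 3518 TPM, a scaled difference of -0.02 ± 0.23. The scaled differences of the 13 genes ranged from -0.22 for ND3 to 2.25 for ND4. Within the IP the median difference was 1.34, with 9 of 13 genes at 1 or more, and within the PP it was 0.26, with 1 of 13. ND4 overlaps ND4L, and ATP6 overlaps ATP8, so reads of these pairs could be split in counting.

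Chromatin regulators, which modify histones or move nucleosomes, were higher in the high-median libraries nearly throughout. Of 52 tested members, all 52 were higher without overlap as deposited, against 54.6% of all tested loci. After scaling, 37 were higher and 0 lower without overlap, against 20.2% and 19.5% of all tested loci. Their median scaled difference was 0.45 and 48 of 52 were higher in both phases, while their median transcript was 8494 bases long. EP300, a histone acetyltransferase, had 9.95, 9.85 and 9.13 TPM against 1.46, 1.40 and 3.10 TPM, with a scaled difference of 1.38 ± 0.28. Its relative CREBBP had 9.59, 7.17 and 7.26 TPM against 1.32, 1.32 and 2.54 TPM. KMT2A, a histone methyltransferase, had 5.50, 5.399 and 6.90 TPM against 0.797, 0.811 and 1.94 TPM. At the other end of the list, SMARCC1 and DNMT1 had scaled differences of -0.13 ± 0.14 and 0.02 ± 0.12, with classes that overlapped after scaling. After subtraction of the length class medians, the median of the list was 0.32.

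Large ubiquitin ligases, which mark proteins for degradation, had a median scaled difference of 0.45 over 33 members, and of 0.20 after subtraction of the length class medians. Of the 33, 20 were higher without overlap and 0 lower, against 20.2% and 19.5% of all tested loci, and 29 were higher in both phases. UBR4 had 14.3, 15.4 and 11.5 TPM against 2.66, 2.94 and 5.43 TPM, and HUWE1 had 14.9, 19.1 and 12.5 TPM against 3.44, 3.59 and 6.54 TPM. UBE3A, a ligase of moderate length, had 37.2, 47.1 and 44.2 TPM against 28.8, 28.2 and 30.4 TPM, and its scaled difference was -0.09 ± 0.11. Among 27 genes of insulin and mTOR signalling, 10 were higher and 1 was lower without overlap, against 20.2% and 19.5% of all tested loci. The median was 0.39, and 0.25 after subtraction of the length class medians. EIF4EBP2, which restrains translation until mTOR phosphorylates it, had a scaled difference of 1.22 ± 0.30. GSK3A, a kinase that acts on glycogen synthase, had 10.9, 10.1 and 8.93 TPM against 1.93, 1.91 and 3.78 TPM. RHEB, the activator of mTOR, had a scaled difference of -0.54 ± 0.20, and of -0.06 after subtraction of the median of its length class.

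Splicing factors and hnRNP proteins, which bind and process messenger RNA precursors, leaned to the high-median side, with 32 of 45 above 0 after scaling. Their median scaled difference was 0.21, with 0.04 within the IP and 0.37 within the PP. After subtraction of the length class medians it was 0.24. Of 45 members, 20 were higher and 2 lower without overlap after scaling, against 20.2% and 19.5% of all tested loci, and 5 were counted as higher, against 3.2%. Besides SRRM2 these were HNRNPD, HNRNPL, PRPF8 and SF3A1. HNRNPD had 32.1, 36.7 and 29.5 TPM against 7.87, 7.61 and 13.0 TPM, and its difference of 1.12 ± 0.22 was 1.28 after subtraction of its length class median. SF3A1 had 6.96, 9.56 and 6.81 TPM against 1.35, 1.19 and 2.62 TPM. SF3A3, which acts in the same complex as SF3A1, had 14.3, 19.2 and 15.2 TPM against 15.1, 12.9 and 13.8 TPM and a scaled difference of -0.40 ± 0.07. Members of 1 complex thus stood on opposite sides after scaling.

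The giant and scaffold proteins of the sarcomere had a median of 0.25 over 19 members, with 8 higher and 0 lower without overlap, against 20.2% and 19.5% of all tested loci. NEB, nebulin, which spans the thin filament, had 926, 1081 and 493 TPM against 184, 212 and 354 TPM. CACNA1S, the voltage sensor of excitation-contraction coupling, had 122, 99.0 and 60.5 TPM against 24.4, 17.2 and 28.5 TPM, and its scaled difference was 1.31 ± 0.33. The median transcript of the list was 13585 bases long. Of the 19 members 4 had a scaled difference below 0, such as MYOM3, a protein of the M band, at 6.69, 27.1 and 6.52 TPM against 7.76, 51.1 and 33.3 TPM. After subtraction of the length class medians, the median of this list was -0.0006.

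Single regulators of muscle size and of stress were also among the genes higher in the high-median libraries. FBXO32, the muscle ubiquitin ligase known as atrogin-1, had 363, 97.9 and 331 TPM against 43.8, 27.9 and 82.3 TPM. Its classes did not overlap as deposited but did after scaling, at 1.63 ± 0.85, because IP replicate 2 had the lowest high-median value. MEF2D, a transcription factor of muscle differentiation, had 20.9, 13.1 and 15.04 TPM against 3.08, 3.14 and 4.99 TPM, and a scaled difference of 1.32 ± 0.33. ULK1, the kinase that starts autophagy, had 31.4, 11.4 and 7.13 TPM against 3.78, 2.42 and 3.30 TPM. BAG3, a partner of heat shock proteins at the Z disc, had 33.5, 64.8 and 29.8 TPM against 7.70, 7.69 and 14.1 TPM. Their lists as a whole lay near the background. The median was 0.01 over 37 genes of atrophy and autophagy, 0.16 over 21 myogenic regulators and -0.09 over 31 heat shock genes. POLR2A, the largest subunit of RNA polymerase II, had a difference of 1.12 ± 0.19 in a list of Mediator and polymerase subunits with a median of -0.17.

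Assembled loci, which carry no gene name in the table, were the other large group of this direction. Of 382 tested, 200 were counted as higher as deposited and 47 after scaling, against 14.6% and 3.2% of all tested loci. Another 9 were counted as lower after scaling, against 1.69% of all tested loci. Their median scaled difference was 0.61, although the summed share of all assembled loci was lower in the high-median libraries, at 38.2%, 37.0% and 43.6% against 48.1%, 51.6% and 50.3%. That sum was dominated by the 3 most abundant loci, of which MSTRG.716 and MSTRG.11763 had scaled differences of -1.08 ± 0.26 and -1.03 ± 0.11. MSTRG.4425 had the largest scaled difference among the assembled loci counted as higher, with 459, 344 and 148 TPM against 38.3, 25.1 and 54.5 TPM, and was named after its value was seen.

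Ribosomal protein genes, whose products build the ribosome, stood on the side of the low-median libraries nearly throughout. Of 45 tested, 41 were lower and 1 was higher in the high-median libraries without overlap after scaling, against 19.5% and 20.2% of all tested loci, and 44 were lower in both phases. Their median difference was -0.82 after scaling and -0.18 as deposited. As deposited, 14 were lower and 5 higher without overlap, against 1.15% and 54.6% of all tested loci. The summed share was 3.82%, 3.76% and 3.98% of TPM against 4.33%, 4.76% and 4.42%. RPS15A had 910.5, 1149.7 and 1194 TPM against 1525, 1582 and 1455 TPM, with a scaled difference of -1.14 ± 0.17. RPL35 had 1260.0, 1238 and 1278 TPM against 1469, 1610 and 1558 TPM, and its scaled difference was -0.94 ± 0.16. RPL29 had 688, 727 and 591 TPM against 877, 853 and 737 TPM. FAU, a ribosomal protein made as a fusion with a ubiquitin-like protein, was the exception at 3.63, 3.93 and 3.39 TPM against 0.858, 0.863 and 1.39 TPM. RPS21 and RPS25 differed mainly by phase, with RPS21 at 0.511, 1.18 and 1199 TPM against 1.75, 2810 and 2257 TPM. Ribosomal protein genes have many processed copies in mammalian genomes, so single values are uncertain. Their transcripts had a median of 771 bases, and the median of the list was -0.40 after subtraction of the length class medians.

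Ribosomal protein messengers of mammals share a run of pyrimidines at their first bases, through which their translation is controlled together. The start windows of 3 ribosomal protein genes that were lower in high-median libraries are shown, chosen among the 11 that hold the letters CTTTC, with those of 3 genes at the other end for comparison. Each window holds 40 bases before and 20 bases from the RefSeq start of the gene on Sscrofa11.1, 5′ to 3′ on the strand of the gene, with CTTTC in capitals. The first CTTTC begins 30 bases before the annotated start in RPS15A and 16 bases before it in RPL35, and 11 bases after it in RPL29, so in none of the 3 does it lie at the annotated first base.
RPS15A (chr3:26776783-26776842, plus strand): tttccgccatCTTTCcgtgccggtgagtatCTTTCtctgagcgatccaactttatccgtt
RPL29 (chr13:34121823-34121882, minus strand): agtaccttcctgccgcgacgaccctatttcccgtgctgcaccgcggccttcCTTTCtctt
RPL35 (chr1:265642259-265642318, minus strand): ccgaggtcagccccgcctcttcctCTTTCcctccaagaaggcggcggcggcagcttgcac
ATP2A1 (chr3:18545024-18545083, plus strand): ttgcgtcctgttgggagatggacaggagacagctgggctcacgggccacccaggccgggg
SRRM2 (chr3:39275574-39275633, plus strand): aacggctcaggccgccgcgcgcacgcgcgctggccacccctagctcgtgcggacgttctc
MLXIP (chr14:30646256-30646315, minus strand): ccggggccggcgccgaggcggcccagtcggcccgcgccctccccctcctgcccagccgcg
CTTTC was present in 11 of 45 windows of ribosomal protein genes (24.4%), and its reverse complement GAAAG in 0. Of all 21136 RefSeq windows of protein-coding genes, 6.35% held CTTTC and 5.90% held GAAAG. Among the nuclear loci with a length, 4 of 133 counted as higher (3.01%) and 10 of 110 counted as lower (9.09%) held CTTTC. These counts describe letters in a window and say nothing of the use of a site.

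Nuclear-encoded subunits of the respiratory chain, which assemble with the mitochondrially encoded ones, lay on the opposite side from them. All 29 tested subunits or assembly factors of complex I had a negative scaled difference in both phases, with a median of -0.75, and 26 were lower without overlap, against 19.5% of all tested loci. Of 31 members of complexes II to V, 26 were lower and 0 higher without overlap, with a median of -0.82. As deposited, the medians were -0.11 and -0.18. NDUFB1, a small accessory subunit of complex I, had 1428, 1717 and 1884 TPM against 3173, 2783 and 2431 TPM, with a scaled difference of -1.38 ± 0.21. COX7A2, a small subunit of complex IV, had 139, 256 and 146 TPM against 310.2, 345 and 276 TPM, and its difference was -0.83 ± 0.30 as deposited and -1.47 ± 0.19 after scaling. CYCS, the electron carrier cytochrome c, had 636, 1009 and 479 TPM against 1019, 1097 and 911 TPM. Other members differed less, such as NDUFA10 at -0.25 ± 0.16 and COX5A at -0.13 ± 0.22, both with overlapping libraries. After subtraction of the length class medians the median of complex I was -0.30, and that of complexes II to V -0.46 over the 10 of 31 members with a length, too few to stand for the list.

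Other groups with short transcripts took the same side after scaling, where 20.2% of all tested loci were higher and 19.5% lower without overlap. Mitochondrial ribosomal proteins had a median of -0.51 over 63 members, with 41 lower and 1 higher without overlap. Small spliceosomal Sm and LSm proteins, the ring around spliceosomal RNAs, had a median of -0.65 over 17 members, with 10 lower and 1 higher. SNRPD2 had 123, 162 and 131 TPM against 199.9, 197 and 164 TPM. For the proteasome, which degrades marked proteins, the median was -0.46 over 28 members with 14 lower and 1 higher. After subtraction of the length class medians, the medians of these 3 lists were -0.17, -0.23 and -0.11. As deposited, they were 0.10, -0.02 and 0.16, so the side of the mitochondrial ribosome and the proteasome depended on the scale. Translation factors were split, with 9 of 32 higher and 14 lower without overlap, beside the same shares of all loci. EIF4G1, a scaffold of the initiation complex, had a scaled difference of 0.78 ± 0.13, whereas EIF3E, a subunit of an initiation factor, and EEF1B2, a factor of elongation, had -0.96 ± 0.31 and -0.86 ± 0.26.

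Several abundant genes of slow fibres and of fatty acid transport were lower in the high-median libraries after scaling. MYL2, the regulatory light chain of slow myosin, lies on chromosome 14 from 32205953 to 32213848 and had 1552, 3490 and 2132 TPM against 3006, 5758 and 4840 TPM. The classes overlapped as deposited, because IP replicate 2 exceeded IP replicate 3, and did not overlap after scaling, at -1.59 ± 0.37. TNNC1, the slow troponin C, had 1721, 3184 and 1327 TPM against 3180, 4194 and 3172 TPM, and its scaled difference was -1.49 ± 0.29. Over the 8 tested slow fibre genes the median was -0.97 after scaling and -0.33 as deposited, where it ranged from -0.81 to 0.11 over the alternatives. It was -0.28 within the IP and -1.70 within the PP after scaling, and 3 were lower without overlap, against 19.5% of all tested loci. FABP3, which carries fatty acids in oxidative fibres, had 131, 265 and 145 TPM against 188, 679 and 502 TPM. Its scaled difference was -0.72 within the IP and -2.48 within the PP. SMPX, a small protein of the muscle cytoskeleton, had 600, 1189 and 544 TPM against 936, 2061 and 1740 TPM. CSRP3 and ANKRD2, stress-responsive proteins of the Z disc, had larger differences of -3.40 ± 1.42 and -2.51 ± 0.98, but IP replicate 2 overlapped with the low-median libraries, with CSRP3 at 21.8, 358 and 26.4 TPM against 133, 820 and 641 TPM. Fatty acid oxidation genes had a median of -0.57, with -0.34 within the IP and -0.51 within the PP, and 16 of 25 were lower in both phases. Without overlap, 7 of 25 were lower and 0 higher, against 19.5% and 20.2% of all tested loci, and the deposited median was 0.03. The most abundant member, PDK4, which holds back the use of glucose, had -0.84 within the IP and 0.36 within the PP.

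The place of the fast fibre list, to which ATP2A1 belongs, depended on the scale. Its median over 12 members was 0.75 as deposited, with 12 above 0. After scaling the median was 0.11, with 6 above 0 and a range of -0.03 to 0.56 over the alternatives. Of the 12, 1 was higher and 0 lower without overlap after scaling, against 20.2% and 19.5% of all tested loci. After subtraction of the length class medians the median of the list was 0.38, with 9 of 11 above 0. The most abundant member, TNNC2, had a scaled difference of -0.38 ± 0.38. CASQ1, the calcium store of the fast reticulum, had 1262, 796 and 471 TPM against 373, 180 and 253 TPM and a scaled difference of 0.96 ± 0.50. The difference of CASQ1 was 0.71 within the IP and 0.66 within the PP. In glycolysis the median over 16 members was 0.70 as deposited, with 15 above 0, 0.08 after scaling, with 9 above 0, and 0.39 after subtraction of the length class medians, with 12 above 0. The summed share of these genes was 4.44%, 3.72% and 3.83% of TPM against 2.78%, 1.98% and 2.58%, without overlap. GAPDH had 19770, 15296 and 19980.3 TPM against 13330, 10389 and 13634 TPM. GAPDH thus differed by 0.56 ± 0.18 as deposited without overlap and by -0.08 ± 0.28 after scaling with overlap. PFKM, the enzyme of the committed step, was the only glycolytic gene higher without overlap after scaling, at 0.77 ± 0.20. PGAM1 was the only one lower, at -0.93 ± 0.24. Each was 1 of 16 members, against 20.2% higher and 19.5% lower of all tested loci. PYGM, glycogen phosphorylase, and PHKA1, a regulatory subunit of the kinase that activates it, had 0.97 ± 0.41 and 0.995 ± 0.39, in a list of 14 with a median of 0.20. The median of this list was -0.08 within the IP and -0.02 within the PP, so its side was not seen within either phase. Zinc finger genes, a large family of transcription factors, had a median of 0.05 over 166 members.

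Immediate-early genes, which are switched on within minutes of a stimulus, were led by IER2. It had 2.64, 4.46 and 1.31 TPM against 7.06, 18.7 and 7.34 TPM, the largest difference toward the low-median libraries under the naming rule on both scales, at -1.62 ± 0.55 as deposited and -2.14 ± 0.51 after scaling. JUNB and FOS, which form the transcription factor AP-1, had scaled differences of -1.45 ± 0.44 and -1.16 ± 0.44 and overlapped as deposited. JUNB was at -0.57 within the IP and -2.30 within the PP. The list was mixed, with medians of -0.42 after scaling and 0.13 as deposited. Of 26 members, 5 were lower and 0 higher without overlap, a share of lower members near the 19.5% of all tested loci, and ZFP36, which destabilises messengers, had 18.4, 14.7 and 29.3 TPM against 3.92, 5.50 and 8.99 TPM.

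The other genes among the 12 largest ranked scaled differences toward the low-median libraries were of varied function. SRXN1, which restores oxidised peroxiredoxins, had 1.12, 12.1 and 1.22 TPM against 6.74, 17.2 and 9.92 TPM, and its scaled difference was -2.08 ± 0.81. The chemokines CCL19 and CXCL2, which attract leukocytes, had -1.71 ± 0.63 and -1.68 ± 0.48. CCL19 was at 5.67, 9.15 and 12.3 TPM against 9.48, 34.97 and 23.7 TPM. METRNL, a secreted protein of muscle and fat, had -1.50 ± 0.40. TCEAL1, DUSP23, a phosphatase, and TYROBP, a signalling adaptor of myeloid cells, completed the group. The deposited classes overlapped for all of these 7 genes, and PP replicate 1 had the highest level of each.

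Markers of other cell types were also lower in the high-median libraries after scaling in several lists. Of 12 macrophage markers 11 were tested, with a median of -0.71, 5 counted as lower and 0 as higher, against 1.69% and 3.2% of all tested loci. Their summed levels of 41.4, 86.0 and 50.0 TPM against 60.9, 103 and 80.4 TPM overlapped. C1QC, a subunit of complement C1q, had 9.98, 23.0 and 9.36 TPM against 16.2, 28.2 and 20.6 TPM. All 11 fibroblast markers were tested, with a median of -0.81 and 3 counted as lower, against the same 1.69%, and their sums of 532, 681 and 448 TPM against 522, 770 and 605 TPM overlapped. DCN, decorin of the matrix, had 112, 173 and 146 TPM against 151, 211 and 172 TPM. Of 11 red cell markers only HBB, ALAS2 and AHSP were tested, and HBB, beta globin, had 198, 321 and 101 TPM against 283, 269 and 188 TPM. The 8 tested adipocyte markers had a median of 0.34 as deposited, with 6 above 0, and of -0.26 after scaling, with 3 above 0. FABP4, which carries fatty acids in adipocytes, was the only one counted, as lower, at 177, 264 and 201 TPM against 307, 483 and 335 TPM, while ADIPOQ, at -0.70 ± 0.45, overlapped. Endothelial markers had a median of -0.06 over 11 members and those of smooth muscle and pericytes 0.07 over 12. The single tested lymphocyte marker had -0.46, the median of 3 neutrophil and mast cell markers was -0.92, of 5 nerve markers 0.36 and of 5 satellite cell markers -0.27, and CD3D and PAX7, which define T cells and satellite cells, stayed under the filter. As deposited, the median of the macrophage list was -0.19, and that of the fibroblast list was -0.23 and ranged from -0.52 to 0.08 over the alternatives. These markers moved with the slow fibre and respiratory genes in the same libraries, and their part in those differences was not tested.

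**Figure D5:**
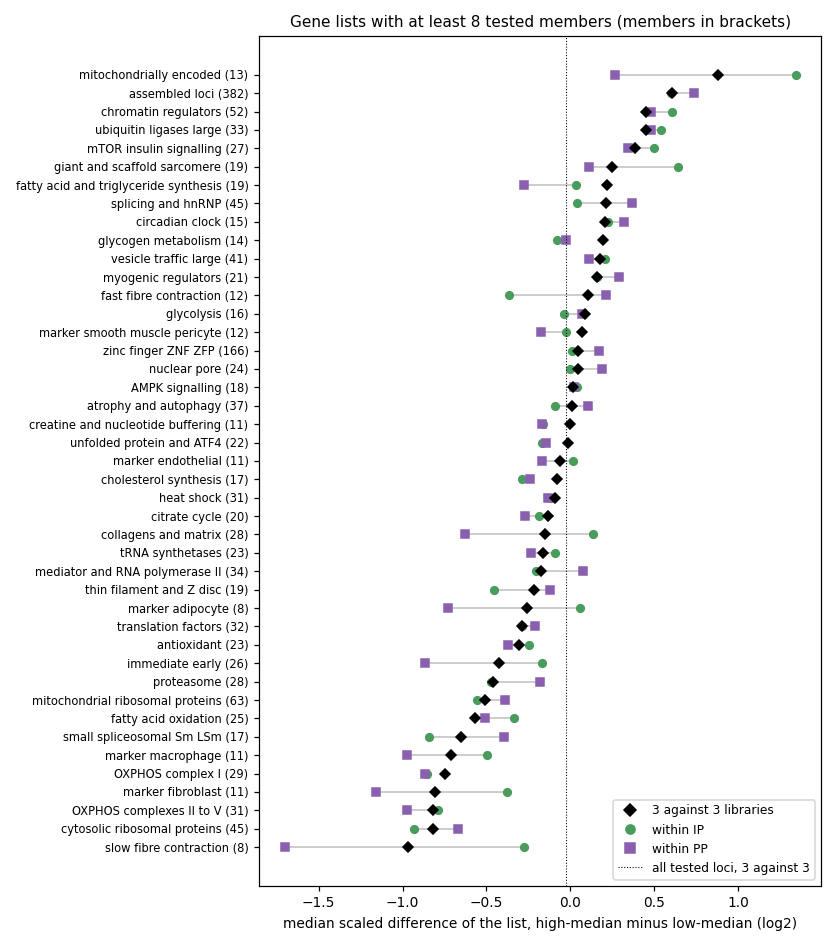
Each line gives the median scaled log2 difference, high-median minus low-median, of a gene list with at least 8 tested members, with the number of members in brackets. Black diamonds are the 3 against 3 libraries, green circles the IP and purple squares the PP alone, and the dotted line is the median of all tested loci at -0.02. Mitochondrially encoded genes lie at 0.88 and chromatin regulators at 0.45, while ribosomal proteins lie at -0.82 and slow fibre genes at -0.97.

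The IP and PP libraries, whose groups come from the labels, were compared with limma, which gave 16 of 10896 loci (0.147%) at an adjusted p under 0.05 (Benjamini-Hochberg), of which 11 were higher in IP libraries and 5 in PP libraries. At an unadjusted p under 0.05 there were 755 (6.93%). The count was 22 without IP replicate 3, and it was 2, 3, 4, 5 and 2 without IP replicates 1 and 2 and PP replicates 1, 2 and 3. With the median class as a term in the fit, 31 loci passed and all 16 were among them. On the same scale, no locus counted between the classes can have phases that do not overlap, since each class holds both phases. For loci counted on deposited TPM, which limma used, it is thus no result that 0 were among the 16. Loci counted as lower only after scaling are not bound in this way. CCL19 had 5.67, 9.15 and 9.48 TPM in IP replicates 1 to 3 and 34.97, 12.3 and 23.7 TPM in PP replicates 1 to 3. Of the 184 loci counted as lower after scaling, 0 were among the 16, and 10 (5.43%) had an unadjusted limma p under 0.05. ATP2A1 had a log2 difference, IP minus PP, of 1.61 ± 0.89 with an adjusted p of 0.79 in limma, and IER2 had -0.41 ± 0.72 with an adjusted p of 0.83. Over all tested loci the median IP minus PP difference was 0.25 as deposited, 0.08 with the median class as a term and -0.006 after median-ratio scaling. The IP held 2 high-median libraries and the PP 1. The part of the median class in the deposited difference between the phases beyond this fit was not tested.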

How the data were processed

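The authors trimmed reads, used TopHat for alignment and Cufflinks for assembly, and deposited gene-level TPM, 1 column per library without pooling. The submitters' processing notes name Sscrofa11.1, while the methods text names an earlier build. Totals were 998729 to 999437 TPM per library. TPM hold no read counts, so depth is unknown and no counting interval was computed. Error is the spread among libraries, as 3 separate animals per phase.

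Loci with at least 1 TPM in at least 3 of 6 libraries were kept (10896 of 12671), and log2(TPM + 1) was taken. Symbols were found for 9764 of 12244 Ensembl identifiers, and transcript length, GC and start sites from RefSeq. The median classes, both scales and the gene lists were described without a test, since the members and lists were chosen with earlier results of these data known. IP and PP were compared with limma 3.58.1 in R 4.3.3 (trend, 2-sided, Benjamini-Hochberg). Other steps used Python 3.11.15. Named genes were, with a symbol, a mean of at least 5 TPM and classes not overlapping, the 12 largest scaled and 5 largest deposited differences in each direction, the 15 most abundant loci, GAPDH, loci called between IP and PP that were also counted (0), and in each list the 4 largest differences and 2 most abundant members. RPL29, RPL35, FAU and others named as examples outside this rule were chosen after their values were seen. The limma step was tested on simulated data of 10896 genes. With 200 genes changed 2-fold it recovered 0% of them, with 200 changed 8-fold 87% beside 8 false calls, and with none changed it made 1 call. Alternatives were other pseudocounts, filters and scalings, the most abundant or mitochondrial loci left out, length-class centring, a replicate block and each library left out.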

Additional observations from a re-analysis of the deposited data

Results flagged for a closer look

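For 4 gene lists the scaled median pointed one way in the IP libraries and the other way in the PP libraries, and these differences between the phases were not tested. The values are differences between the list medians of the libraries, high-median minus low-median. Glycogen metabolism was at -0.10 in the IP and 0.21 in the PP, a gap of -0.31. The nuclear pore was at -0.07 and 0.17, a gap of -0.24. Markers of smooth muscle and pericytes were at 0.16 and -0.20, a gap of 0.36, and 5 nerve markers at -0.04 and 0.08, a gap of -0.12. The medians of the members' own differences, given in the report for the 3 against 3 libraries, are another measure and lay on the same side of 0 in both phases for some of these lists, such as glycogen metabolism at -0.08 and -0.02. In each phase 1 class was a single library, so these values have no replicate check.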

How the results depend on the processing

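Counts depended on the pseudocount. With 0.1, 2547 loci were counted as higher and 6 as lower in the high-median libraries on deposited TPM and 700 as higher after scaling, and with 5 the counts were 557 and 1 as deposited and 110 and 106 after scaling. A mean of at least 5 TPM left 1054 higher as deposited, leaving out the 3 most abundant loci gave 26 lower, and quantile normalization gave 103 lower. Subtracting the length-class median, chosen after seeing the data, gave 125 and 35, with fewer loci tested (8014). With each library left out in turn, which makes non-overlap easier to meet, loci higher as deposited ranged from 1353 to 2026 and lower from 3 to 50. After scaling the ranges were 228 to 602 and 112 to 295. Between IP and PP, limma called 4 loci with a pseudocount of 5, 6 with a mean of at least 5 TPM, 31 with the median class as a term, and 2 to 22 with a library left out. With the replicate number as a block it called 3. The deposited deviations of same-numbered libraries correlated at -0.53, 0.20 and 0.22. The libraries numbered 1 were of different median classes, and those numbered 2 and 3 of the same class. These values hold the shift between the classes, so they cannot tell whether the numbers pair the samples. Over the alternatives, 528 values of named genes and 127 of list medians moved by more than their spread, and 6506 and 1042 did not. The sign turned under at least 1 alternative for 11 list medians as deposited and 18 after scaling, none of them above 0.33 in size. For list medians these counts leave out length-class centring, which turned further signs. The giant and scaffold sarcomere list went from 0.25 to -0.0006, and Mediator and polymerase subunits went from -0.17 to 0.11. Depth is not known, so nothing here separates counting error from the rest.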
